A study of Mus musculus with 12 samples.

Results

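The marrow stromal niche genes described here are 10 genes: Cxcl12, Kitl, Angpt1, Vcam1, Lepr, Gja1, Sparc, Ibsp, Adamts2 and Serping1. They were picked by symbol out of 35869 genes in a mouse RNA-seq count table, and all 10 were found. They are genes of supporting cells of bone marrow, and were put together with the differences between knockout and control libraries already known. Differences of knockout against control are therefore a description of these 10 genes, with no p-value. The number called in the test over all genes is given with nothing read from it. Tests are used for the comparison of cell fractions and for genes outside the set. The lists of those other genes were also drawn up with earlier results of these data known. Their p-values for knockout against control are therefore not independent of that choice.

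The study used flow cytometry to sort bone marrow haematopoietic stem cells (HSCs) into a CD41pos and a CD41neg fraction, CD41 being the product of Itga2b, an integrin of platelets and their precursors. Its question was what the transcription factor RUNX1 does in megakaryocyte-primed stem cells. Each of the 4 groups had 3 libraries. The knockout groups (KO), CD41pos and CD41neg, were labelled MxCre1+/-,RUNX1f/f, with libraries from animal labels KO 1, 2 and 3 in both fractions. The control groups (WT) were labelled MxCre1-/-,RUNX1f/f, with animal labels WT 1, 3 and 4 in CD41pos and WT 2, 3 and 4 in CD41neg. All 4 groups thus carried floxed Runx1 alleles, and all were taken 4 weeks after 4 injections of poly(I:C), an inducer of interferon. The Mx1 promoter that drives this Cre answers to interferon and is not confined to stem cells, so deletion need not have been confined to the sorted cells. The ages of the animals are not given in the labels. Since the labels do not say that each library came from animals of its own, p-values measure the spread between these libraries.

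In bone marrow, stem cells lie next to perivascular stromal cells, osteoblast-lineage cells and endothelium, which hold and feed them. Stromal cells marked by the leptin receptor secrete the chemokine CXCL12 and stem cell factor (the product of Kitl), which act on CXCR4 and KIT on stem cells. Bone-forming cells add matrix proteins such as osteonectin and bone sialoprotein, while adhesion molecules and angiopoietin-1 bind integrins and the TIE2 receptor on the blood cells. Of the 10 genes, Angpt1 is also known to be expressed by stem cells themselves.

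Promoter sequence is shown for the gene with the highest control level among the niche ligands called lower, Cxcl12, and for the gene with the most matches to the RUNX motif, Adamts2. The windows come from RefSeq in the GRCm38.p6 build, with 250 bases before and 50 after each annotated start. They were found for 7 of the 10 genes (8 windows, since Lepr had a pair), and none was used here for Serping1, Vcam1 or Angpt1. Only the bases before the start are printed, 5′ to 3′ on the strand of the gene, for Cxcl12 at chr6:117168285-117168534 on the plus strand and for Adamts2 at chr11:50601835-50602084 on the plus strand. Capitals mark TGCGGT or its reverse complement ACCGCA.
Cxcl12: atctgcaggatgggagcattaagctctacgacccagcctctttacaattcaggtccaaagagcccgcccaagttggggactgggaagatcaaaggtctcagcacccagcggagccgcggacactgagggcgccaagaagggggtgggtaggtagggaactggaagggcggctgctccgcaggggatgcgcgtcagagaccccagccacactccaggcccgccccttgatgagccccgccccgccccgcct
Adamts2: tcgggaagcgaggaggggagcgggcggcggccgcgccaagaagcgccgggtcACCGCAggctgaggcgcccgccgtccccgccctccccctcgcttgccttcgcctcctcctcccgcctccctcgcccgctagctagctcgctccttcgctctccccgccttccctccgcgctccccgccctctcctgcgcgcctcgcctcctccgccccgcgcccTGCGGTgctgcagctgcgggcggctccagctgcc
The letters TGTGGT and TGCGGT were searched on both strands, and no stretch can match both. TGCGGT was found in the Adamts2 window, as ACCGCA with its first letter at position -198 and as TGCGGT at position -34 from the start. TGTGGT was found in the Sparc window, as ACCACA at position 36 after the start. The other 5 genes with a window had no match to either in these windows. Over all 32851 windows of 300 bases, 16.8% held TGTGGT, 6.45% held TGCGGT and 22.4% held either, so 2 of 7 genes is close to the background.

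Library totals ran from 44108035 to 58946457 counts, with 21973 to 27097 genes counted at least once. Levels are given as CPM, counts scaled to a common library total after TMM factors (an adjustment for library makeup). Runx1 itself was 270 to 382 CPM in CD41pos KO libraries, against 141 to 159 CPM in CD41pos WT libraries, and 157 to 171 CPM in CD41neg KO libraries, against 65.7 to 90.5 CPM in CD41neg WT libraries. Its gene total was thus higher in the libraries labelled KO. These counts are summed over the whole gene and do not show whether the floxed stretch was lost, so KO and WT stand for the labels throughout. Itga2b was 1028 to 1268 CPM in CD41pos KO and 213 to 270 CPM in CD41neg KO, and 551 to 683 CPM in CD41pos WT and 49.6 to 138 CPM in CD41neg WT. It followed the sort. A list of 12 stem and progenitor markers, Procr and Slamf1 among them, summed to 1688 to 2787 CPM in KO libraries and 1166 to 2193 CPM in WT libraries, with none at 0 in any group. Xist was about 1 CPM in KO 1 and KO 3 and 308 to 318 CPM in KO 2, against 113 to 339 CPM in WT libraries, so the sexes were not balanced between genotypes. For the 8 genes described as lower in KO, KO 2 was lower than every WT library, as KO 1 and KO 3 were. The part of sex in these differences was not tested. The Y-linked Ddx3y was found beside Xist in 4 WT libraries, at 11.2 to 38.9 CPM, so a WT library may hold more than 1 animal. In all, 4 WT libraries stood apart, CD41pos WT 1 and 4 and CD41neg WT 2 and 4: their Nr4a1, an immediate early gene, was 18.6 to 27.7 CPM, against 237 to 396 CPM in the other 8. They are also the WT libraries with numbers up to 6 in the labels, and fold changes are given also without these low-Nr4a1 libraries, which leaves 1 WT library in each fraction, assumed to vary as the KO libraries do. The library numbers ran lower in all WT than in all KO samples, so genotype and the order of the libraries cannot be told apart.

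In KO HSCs, 8 of the 10 niche genes lay lower in every KO library than in every WT library of the same fraction, in both fractions, and Vcam1 and Angpt1 did not. As fitted by edgeR, the WT level of the 8 was 3 to 9.58 times that in KO in CD41pos HSCs, and 4.61 to 109 times in CD41neg HSCs, where the highest folds rest on few KO counts. In the edgeR quasi-likelihood test over all 19395 genes tested, 7 of the 10 (all but Kitl, Vcam1 and Angpt1) were called lower at an adjusted p below 0.05 in CD41pos, where 7.27% of all genes tested were called lower and 17.1% in either direction, and 8 (all but Vcam1 and Angpt1) in CD41neg, where 3.97% were called lower and 7.82% in either direction. Libraries did not overlap, with KO lower, for 22.4% of all genes tested in CD41pos and for 17% in CD41neg. Nothing is read from these counts, since the genes were chosen with this contrast known. The median log2 fold change of the 10 genes was -2.22 in CD41pos and -3.80 in CD41neg, against -0.08 and -0.03 over all genes tested. In bulk samples, fewer cells of a type and less RNA per cell cannot be told apart.

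**Figure D1:**
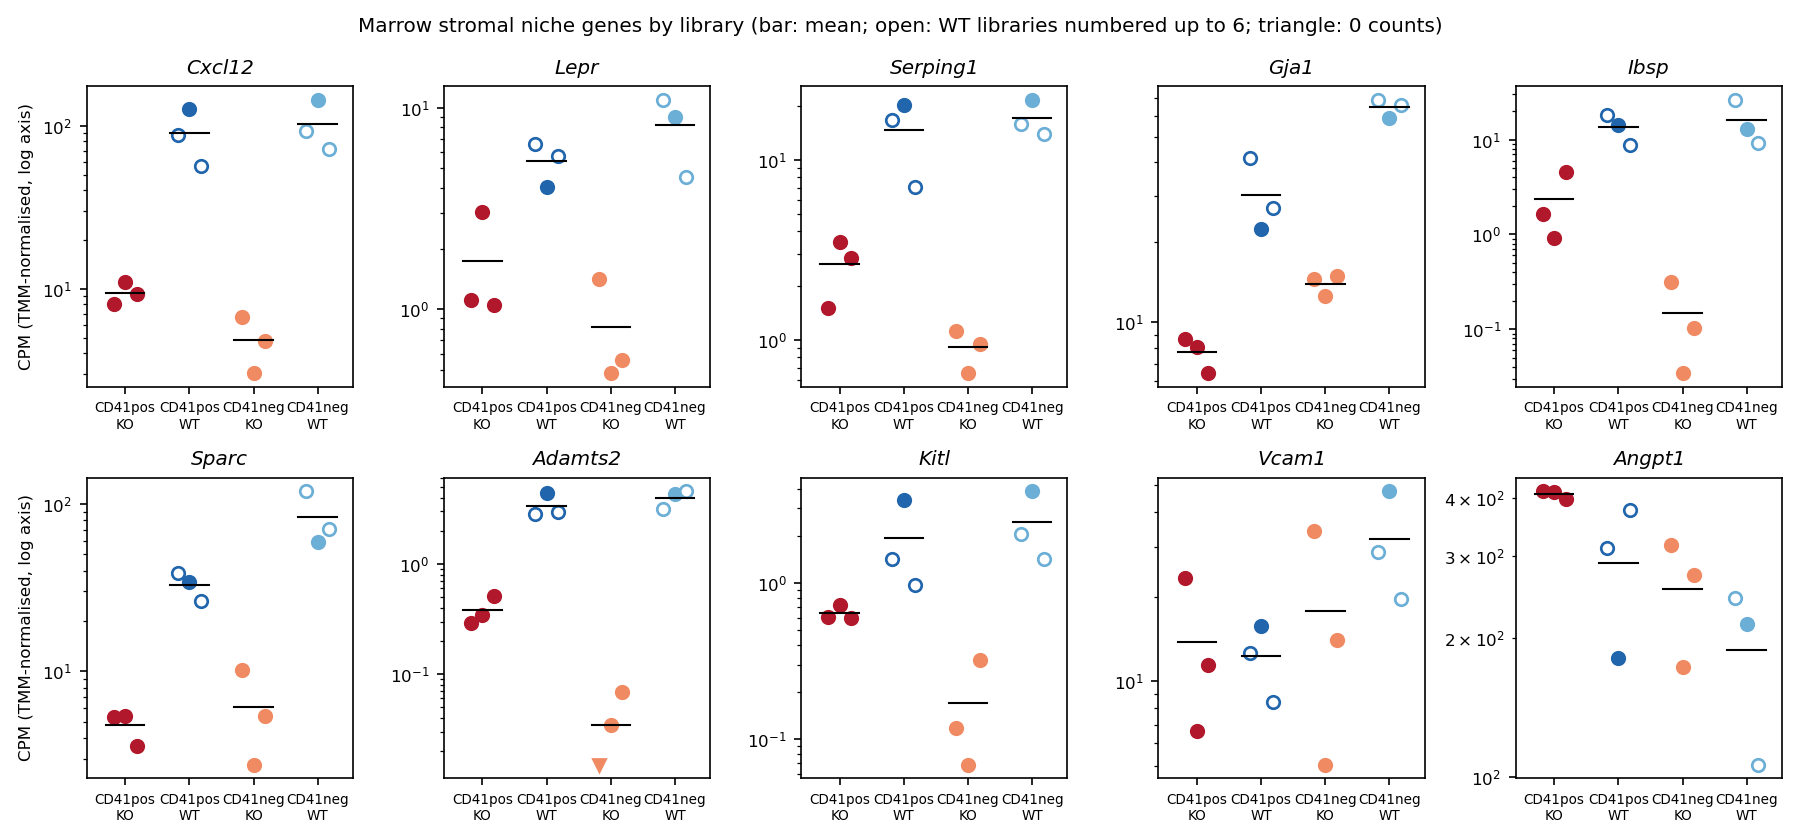
CPM of each of the 10 niche genes in each of the 12 libraries, on a log axis, with KO left of WT within each fraction. Points are libraries, bars are group means, open points are the 4 low-Nr4a1 libraries (the WT libraries numbered up to 6) and the triangle is a library with 0 counts. The 8 genes other than Vcam1 and Angpt1 have all KO points below all WT points in both fractions, whereas the points of Vcam1 overlap and Angpt1 is high in both genotypes.

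Per transcript length, in TPM (transcripts scaled to a common total), as the authors deposited them, Angpt1 had the highest level of the 10 genes in 3 groups. It was 113 ± 0.764 TPM in CD41pos KO, 72.9 ± 34.2 TPM in CD41pos WT and 72.4 ± 22.7 TPM in CD41neg KO (SD, n = 3). Next in the KO groups came Vcam1, with 13.7 ± 8.35 TPM in CD41pos KO and 18.3 ± 15.5 TPM in CD41neg KO, and Gja1, with 8.40 ± 1.15 and 15.6 ± 1.93 TPM in the same groups. Their ranges in the KO groups overlapped, so Vcam1 and Gja1 did not differ beyond their spread.

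In CD41neg WT the order was another, with Gja1 at 64.1 ± 8.08 TPM, Sparc at 49.3 ± 22.0 TPM and Angpt1 at 48.7 ± 21.8 TPM, which overlapped. In CD41pos WT, Gja1, Cxcl12, Ibsp and Sparc followed Angpt1 within 18.4 to 29.5 TPM and overlapped in turn. Lepr, Adamts2 and Kitl were the lowest in both WT groups and in CD41pos KO, with group means of at most 1.37 TPM. In CD41neg KO, Ibsp at 0.300 ± 0.265 TPM stood among them, and Adamts2 was listed at 0 TPM in all 3 libraries.

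Cxcl12 encodes the chemokine that holds stem cells in the marrow, and lies at chr6:117168535-117181367 on the plus strand. It was 8.08, 11.0 and 9.21 CPM in CD41pos KO 1, 2 and 3, against 87.1, 127 and 56.7 CPM in CD41pos WT 1, 3 and 4. The highest KO library was thus well under the lowest WT library, and WT libraries spread more than KO libraries. In CD41neg it was 6.66, 3.03 and 4.79 CPM in KO 1, 2 and 3, against 92.2, 144 and 71.7 CPM in WT 2, 3 and 4. WT 3 was the highest in both fractions and is not among the low-Nr4a1 libraries. KO over WT, the log2 fold change was -3.26 ± 0.37 (SE) in CD41pos and -4.41 ± 0.39 in CD41neg, and without the 4 low-Nr4a1 libraries it was -3.67 and -4.90.

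Kitl encodes stem cell factor, the ligand of KIT, and lies at chr10:100015630-100100416 on the plus strand. Its level was low in every library. It was 0.602, 0.717 and 0.597 CPM in CD41pos KO, against 1.42, 3.38 and 0.975 CPM in CD41pos WT, and 0.118, 0.0688 and 0.323 CPM in CD41neg KO, against 2.05, 3.86 and 1.43 CPM in CD41neg WT. The groups did not overlap in either fraction, and WT 3 was again the highest. In CD41neg this rested on 29 counts over the KO libraries and 344 over the WT libraries, a level in WT 13.7 times that in KO with an exact 95% counting interval of 9.36 to 20.7. That interval covers counting error only. As a log2 fold change this was -1.58 ± 0.60 in CD41pos and -3.82 ± 0.67 in CD41neg. Without the 4 low-Nr4a1 libraries it was -2.32 and -4.48.

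Angpt1, at chr15:42424723-42676977 on the minus strand, encodes angiopoietin-1, the ligand of TIE2. In CPM it was 414, 413 and 399 in CD41pos KO, against 313, 181 and 377 in CD41pos WT. All KO libraries were above all WT libraries there, as for 21.9% of all genes tested, and the KO values lay close together while WT 3 was low. CD41neg HSCs had 318, 173 and 273 CPM in KO, against 244, 215 and 106 CPM in WT, and the groups overlapped. Its log2 fold change was 0.49 ± 0.32 in CD41pos and 0.43 ± 0.32 in CD41neg. Without the low-Nr4a1 libraries, which leaves WT 3 as the one CD41pos WT library, the CD41pos value was 1.26 ± 0.29, with an error taken from the spread of the KO groups. Stem and progenitor markers were also lowest in CD41pos WT 3, at 1166 CPM summed, and what they had to do with this value was not tested.

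Vcam1 encodes the adhesion molecule that the integrin VLA-4 binds, and lies at chr3:116109949-116129688 on the minus strand. It was 23.3, 6.67 and 11.4 CPM in CD41pos KO, against 12.6, 15.7 and 8.45 CPM in CD41pos WT, and the groups overlapped. CD41neg HSCs had 34.3, 5.04 and 14.1 CPM in KO, against 28.9, 47.5 and 19.6 CPM in WT, with KO 1 among the WT values. KO 1 was high and KO 2 low in both fractions, so the libraries that share an animal label went together. For Vcam1 the log2 fold change was 0.17 ± 0.60 in CD41pos and -0.85 ± 0.60 in CD41neg, and without the low-Nr4a1 libraries -0.10 and -1.42, so its CD41pos sign turned. Macrophages and endothelium are also known to express Vcam1, and 10 macrophage markers summed to 35.8 to 69.3 CPM in CD41pos KO, against 60.0 to 67.0 CPM in CD41pos WT, and to 26.6 to 106 CPM in CD41neg KO, against 52.4 to 99.5 CPM in CD41neg WT. Among KO libraries these sums were highest in KO 1 and lowest in KO 2 in both fractions, as Vcam1 was, and their part in the Vcam1 level was not tested.

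Lepr encodes the leptin receptor, the usual marker of perivascular stromal cells, and lies at chr4:101717404-101815352 on the plus strand. It was 1.11, 3.03 and 1.05 CPM in CD41pos KO, against 6.56, 4.04 and 5.73 CPM in CD41pos WT, with KO 2 nearest to the WT libraries. In CD41neg it was 1.41, 0.482 and 0.561 CPM in KO, against 11.0, 9.04 and 4.53 CPM in WT, which were further apart. The log2 fold change was -1.65 ± 0.52 in CD41pos and -3.32 ± 0.56 in CD41neg, and without the low-Nr4a1 libraries -1.14 ± 0.73 and -3.47. With any 1 library left out, the CD41pos value ran from -2.33 to -1.39.

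Gja1 encodes connexin 43, the gap junction protein through which stromal cells couple to each other and to stem cells, and lies at chr10:56377330-56402513 on the plus strand. It was 8.66, 8.08 and 6.44 CPM in CD41pos KO, against 41.5, 22.5 and 26.9 CPM in CD41pos WT. CD41neg HSCs had 14.5, 12.5 and 14.9 CPM in KO, against 68.9, 58.9 and 65.6 CPM in WT. Libraries of a group lay close together in CD41neg and in CD41pos KO, whereas CD41pos WT spread from 22.5 to 41.5 CPM. Levels were higher in CD41neg than in CD41pos in both genotypes. Its log2 fold change was -1.97 ± 0.22 in CD41pos and -2.20 ± 0.22 in CD41neg, with the smallest errors of the 10 genes.

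Among the matrix genes, Sparc encodes osteonectin, which binds collagen and mineral in bone, and lies at chr11:55394500-55423183 on the minus strand. It was 5.34, 5.43 and 3.58 CPM in CD41pos KO, against 38.5, 34.0 and 26.4 CPM in CD41pos WT. CD41neg HSCs had 10.1, 2.77 and 5.42 CPM in KO, against 119, 59.4 and 70.9 CPM in WT, with KO 1 the highest KO library and WT 2 the highest of all. For Sparc the log2 fold change was -2.78 ± 0.42 in CD41pos and -3.77 ± 0.43 in CD41neg.

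Ibsp encodes bone sialoprotein, made by osteoblast-lineage cells, and lies at chr5:104299171-104311469 on the plus strand. It was 1.66, 0.914 and 4.53 CPM in CD41pos KO, against 18.0, 14.3 and 8.87 CPM in CD41pos WT. In CD41neg the counts were 16, 2 and 6 in KO, against 1355, 566 and 450 in WT, or 0.314, 0.0344 and 0.102 CPM against 26.4, 12.9 and 9.30 CPM. The CD41neg KO libraries were thus near the limit of detection, while the CD41pos KO libraries were not. The WT level in CD41neg was 114 times that in KO by summed counts, with an exact 95% counting interval of 76.4 to 178. That interval covers counting error only, not the spread of the libraries or the choice of the gene. The log2 fold change was -2.53 ± 0.64 in CD41pos, and ran from -3.41 to -2.15 with any 1 library left out. In CD41neg it was -6.77 ± 0.82, a fitted value that depends on few KO counts.

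Adamts2 encodes the protease that trims the N-terminal propeptide of fibrillar procollagen, and lies at chr11:50602084-50807573 on the plus strand, just after the promoter printed above. Its counts were 16, 19 and 29 in CD41pos KO, against 159, 193 and 175 in CD41pos WT, and 0, 2 and 4 in CD41neg KO, against 162, 189 and 222 in CD41neg WT. WT libraries of both fractions were alike, whereas the CD41neg KO libraries had almost no counts. By summed counts the CD41neg WT level was 110 times that in KO, with a counting interval of 50.3 to 301, again for counting error only. The log2 fold change was -3.14 ± 0.49 in CD41pos and, from those few counts, -6.74 ± 0.63 in CD41neg.

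Serping1 encodes the C1 inhibitor, a serpin that blocks the first proteases of the complement pathway, and lies at chr2:84765387-84775444 on the minus strand. It was 1.5, 3.51 and 2.86 CPM in CD41pos KO, against 16.7, 20.1 and 7.06 CPM in CD41pos WT, and WT 4 was the lowest WT library. In CD41neg it was 1.12, 0.654 and 0.952 CPM in KO, against 15.7, 21.6 and 14.0 CPM in WT, and both groups were narrow. The log2 fold change was -2.48 ± 0.42 in CD41pos and -4.24 ± 0.45 in CD41neg. Without the low-Nr4a1 libraries the values were -2.85 and -4.57 for Serping1, -2.75 and -3.29 for Sparc, -2.51 and -6.44 for Ibsp, -3.43 and -6.83 for Adamts2 and -1.46 and -2.07 for Gja1.

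**Figure D2:**
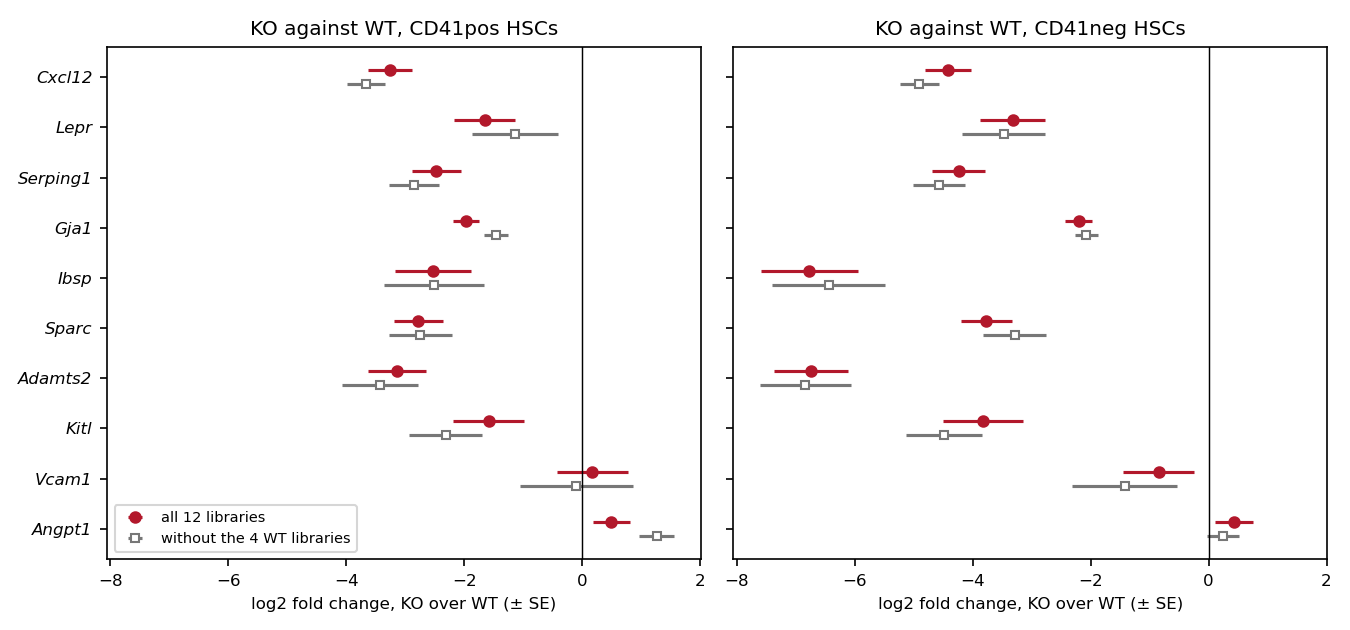
Log2 fold change of KO over WT for each niche gene in CD41pos and CD41neg HSCs, with standard errors, from the fit on all 12 libraries (red) and from the fit without the 4 low-Nr4a1 WT libraries (grey). Angpt1 lies above 0 and Vcam1 lies near 0 in CD41pos, and the other 8 genes lie below 0 in both fractions under both fits.

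The comparison of CD41pos with CD41neg cells was not used to choose the genes, and was tested within each genotype. It uses the same libraries as the KO-WT contrast known at that choice, so its tests of these genes are not independent of it. In KO, 2 of the 10 genes, Ibsp and Adamts2, were higher in CD41pos and none was lower, where 1.56% of all genes tested were called higher, 1.23% lower and 2.79% in either direction. This fit does not use the pairing of KO libraries by animal label. With that label as a block, Ibsp alone of the niche genes passed, and calls over all genes fell from 541 to 156. Ibsp was 1.66, 0.914 and 4.53 CPM in CD41pos KO 1, 2 and 3, against 0.314, 0.0344 and 0.102 CPM in CD41neg KO, so every CD41pos library was above every CD41neg library. Its log2 difference was 4.00 ± 0.77, with an adjusted p of 0.0151 in edgeR's quasi-likelihood test, and 0.0440 with the animal label as a block. Leaving out CD41pos KO 3, CD41neg KO 2 or CD41neg KO 3 gave adjusted p of 0.0612, 0.0523 and 0.0894. Adamts2 was 0.292, 0.341 and 0.509 CPM in CD41pos KO, against 0, 0.0344 and 0.0680 CPM in CD41neg KO, with a log2 difference of 3.35 ± 0.61 and an adjusted p of 0.0115 in the same test. It did not pass with the animal label as a block (adjusted p = 0.0651), in a fit of the KO libraries alone (0.0706) or without CD41pos KO 3 (adjusted p = 0.0526). On log2(TPM + 1) neither gene passed in limma (adjusted p = 0.121 for Ibsp and 0.299 for Adamts2), with log2 differences of 1.80 for Ibsp and 0.14 for Adamts2.

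The other 8 genes did not pass in KO in that test, although 4 of them also had every CD41pos library above every CD41neg library (15.7% of all genes tested) and Gja1 had every one below (14.1%). Gja1 had a log2 difference of -0.86 ± 0.22 (edgeR adjusted p = 0.0583) and Serping1 1.53 ± 0.42 (edgeR adjusted p = 0.0795). Kitl had 1.89 ± 0.65, Lepr 1.09 ± 0.53, Cxcl12 0.97 ± 0.35 and Angpt1 0.68 ± 0.32, and Sparc at -0.35 ± 0.40 and Vcam1 at -0.37 ± 0.60 were within about 1 SE of 0. Beside these values, 9 of 10 megakaryocyte markers were higher in CD41pos KO than in CD41neg KO, summing to 1895 to 2254 CPM, against 419 to 523 CPM. That list holds Itga2b, the gene of the sort marker, so it is not independent of the sort. Itga2b alone was 1028 to 1268 CPM in CD41pos KO and 213 to 270 CPM in CD41neg KO. Platelets and megakaryocytes carry several matrix proteins, among them osteonectin, and the part of such cells in the gate differences was not tested.

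In WT, Gja1 alone of the 10 was called, and it was lower in CD41pos, where 2.87% of all genes tested were called lower, 2.72% higher and 5.59% in either direction. Its values were 41.5, 22.5 and 26.9 CPM in CD41pos WT, against 68.9, 58.9 and 65.6 CPM in CD41neg WT, without overlap. The log2 difference was -1.09 ± 0.22 (edgeR adjusted p = 0.0137), and it passed in all 12 fits that left out 1 library. It did not pass with the animal label as a block (adjusted p = 0.0766) or in a fit of the WT libraries alone (adjusted p = 0.0904). That block rests on labels WT 3 and 4 alone, and the WT 4 libraries did not vary together (correlation -0.47) or share Ddx3y (22.5 CPM in CD41pos WT 4 and 0 in CD41neg WT 4), so WT labels are not shown to mark 1 animal. Sparc, with -1.34 ± 0.39, and Vcam1, with -1.39 ± 0.61, also had every CD41pos WT library below every CD41neg WT library (11.4% of all genes tested), but their adjusted p in edgeR's test were 0.0681 and 0.211. The remaining 7 genes had adjusted p of 0.281 to 0.865 in the same test. All 10 megakaryocyte markers, the sort gene Itga2b among them, were higher in CD41pos WT, and 5 of 10 erythroid markers were lower.

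**Figure D3:**
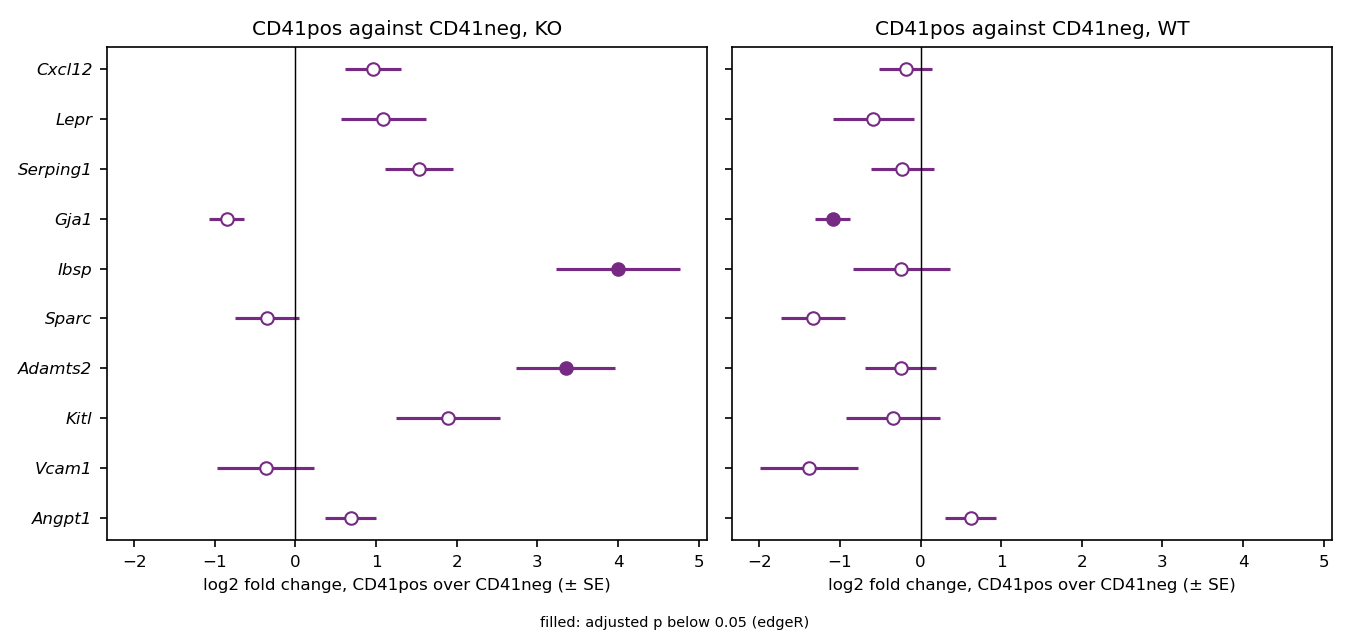
Log2 difference of CD41pos over CD41neg for each niche gene in KO and in WT, with standard errors, filled where the adjusted p was below 0.05. Ibsp and Adamts2 are filled in KO and Gja1 in WT, and each of the 10 genes has its KO value to the positive side of its WT value.

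Whether the knockout difference itself depended on the fraction was tested as an interaction. It is the difference between the KO-WT contrasts known when the genes were chosen, so its values for these genes are not independent of that choice. The KO-WT difference was less negative, or more positive, in CD41pos than in CD41neg for all 10 genes, with a median of 1.41 on the log2 scale, against -0.02 over all genes tested. Of 53 other stromal genes tested, 31 went this way, with a median of 0.23. Of 12 endothelial markers 10 did, with a median of 1.06, so this direction was not particular to the niche genes. The largest were those of Ibsp, 4.23 ± 0.97, and Adamts2, 3.60 ± 0.76, followed by Kitl at 2.24 ± 0.87, Serping1 at 1.76 ± 0.57 and Lepr at 1.67 ± 0.73. Cxcl12 had 1.15 ± 0.48, Vcam1 1.02 ± 0.85 and Sparc 0.99 ± 0.56, while Gja1 at 0.23 ± 0.30 and Angpt1 at 0.06 ± 0.45 were within 1 SE of 0. No interaction passed in edgeR's test for any of the 10, with adjusted p of 0.515 to 0.993, nor for any of the 19395 genes (0% called). At an unadjusted p below 0.05 there were 1093 genes, 6 of the 10 among them, and DESeq2 called 72 genes, Ibsp and Adamts2 among them. The genes do not count as separate evidence of a direction, since they share the libraries.

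Other genes of marrow stroma were read from a list of 54, of which 53 could be tested and Tnfrsf11b could not. The list was drawn up with earlier results of these data known, so its p-values for KO against WT are not independent of that choice. Some genes below were named because they were called with the largest fold changes. In CD41pos, 19 were lower in KO, 2 were higher and 32 did not pass, where 7.27% of all genes tested were called lower and 9.79% higher, and the median log2 fold change was -1.29, against -0.08 over all genes tested. In CD41neg, 19 were lower, 1 was higher and 33 did not pass, where 3.97% of all genes tested were called lower and 3.85% higher, and the median was -1.84, against -0.03. Of these, 13 were lower in both fractions. The share of all genes lower in both was not taken, so nothing is read from that count. The gene with the highest level in the list was among the few called higher.

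Apoe, apolipoprotein E, which macrophages and many other cells also make, had the highest level of the list and was higher in KO. It was 1380, 1643 and 1344 CPM in CD41pos KO, against 864, 1072 and 812 CPM in CD41pos WT, with a log2 fold change of 0.67 ± 0.16 (edgeR adjusted p = 0.0182). In CD41neg the fold change was 0.66 ± 0.16 (edgeR adjusted p = 0.0320), and calls were lost in 2 and 5 of the 12 fits that left out 1 library, with adjusted p of up to 0.0828 and 0.0994. Nt5e, the ecto-nucleotidase CD73, was the other gene higher in CD41pos KO, but that call was lost in 8 of the 12 fits, with adjusted p of up to 0.159. Igfbp4, a binding protein of insulin-like growth factors, was next in level and had log2 fold changes of -0.38 ± 0.21 and 0.02 ± 0.21, with edgeR adjusted p of 0.208 and 0.964. Apoe and Igfbp4 made up 47.0 to 89.7% of the summed level of the list in a library. The other 52 genes summed to 217 to 249 CPM in CD41pos KO, against 415 to 664 CPM in CD41pos WT, and to 285 to 317 CPM in CD41neg KO, against 356 to 1114 CPM in CD41neg WT.

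Hp, haptoglobin, was lower in both fractions, by -2.08 ± 0.41 and -2.30 ± 0.41 on the log2 scale (edgeR adjusted p = 0.00785 and 0.00958). Haptoglobin is also a granule protein of neutrophils. A list of 10 neutrophil markers summed to 1524 to 3526 CPM in CD41pos KO, against 3952 to 5267 CPM in CD41pos WT. In CD41neg they summed to 371 to 1037 CPM in KO, against 1820 to 2639 CPM in WT. Mpo alone made up most of each sum, at 1278 to 2924 CPM in CD41pos KO and 2789 to 4211 CPM in CD41pos WT. In CD41pos, 1 of the 10 had every KO library below every WT library, as for 22.4% of all genes tested. In CD41neg 4 did, as for 17%. The part of these markers in the Hp level was not tested. Gas6, the ligand of the TAM receptor kinases, was lower by -2.09 ± 0.45 and -1.64 ± 0.44 (edgeR adjusted p = 0.0108 and 0.0415), and the calls were lost without CD41pos KO 2 (adjusted p = 0.0551) and, in CD41neg, in 9 of the 12 fits (adjusted p of up to 0.0972). The CD41neg call of Hp was at the threshold without CD41neg KO 3, with an adjusted p of 0.05003. Adipoq, the adipokine adiponectin that Lepr-marked stromal cells also express, was lower in CD41neg by -5.39 ± 0.93 (edgeR adjusted p = 0.00835) in all 12 fits.

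Collagen I was lower in KO but its WT level was uneven. Col1a1 was 0.376 to 0.579 CPM in CD41pos KO, against 124, 3.11 and 80.3 CPM in CD41pos WT 1, 3 and 4, and 0.119 to 0.941 CPM in CD41neg KO, against 361, 2.38 and 4.30 CPM in CD41neg WT 2, 3 and 4. Of the 4 low-Nr4a1 libraries, 3 were the high ones, with WT 3 low in both fractions. Of the niche genes, Lepr, Gja1, Ibsp and Sparc were also highest in CD41pos WT 1 and CD41neg WT 2. Their WT 3 libraries were above all KO libraries, as those of Col1a1 were. Among WT libraries, Cxcl12, Kitl, Serping1 and Vcam1 were highest in WT 3. The log2 fold changes of Col1a1 were -7.24 ± 1.96 and -8.14 ± 2.03 (edgeR adjusted p = 0.0274 and 0.0331). Those of Col1a2 were -4.29 ± 1.13 and -4.14 ± 1.12 (edgeR adjusted p = 0.0246 and 0.0429). All 4 calls were lost with a term for the 4 low-Nr4a1 libraries, and in 4 to 10 of the 12 fits that left out 1 library, with adjusted p of up to 0.185. The osteoblast genes Bglap, osteocalcin, and Sp7, osterix, were lower in CD41pos by -6.14 ± 1.92 and -5.61 ± 1.79 (edgeR adjusted p = 0.0467 and 0.0495), and both calls were likewise lost with that term and in 8 of the 12 fits, with adjusted p of up to 0.150. Il34, a ligand of the CSF1 receptor, was lower by -4.42 ± 1.20 and -5.11 ± 1.28 (edgeR adjusted p = 0.0276 and 0.0336), and Mmp13, a collagenase, by -5.65 ± 1.40 in CD41neg (edgeR adjusted p = 0.0324). Their calls were lost in 3 to 5 of the 12 fits, with adjusted p of up to 0.140.

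**Figure D4:**
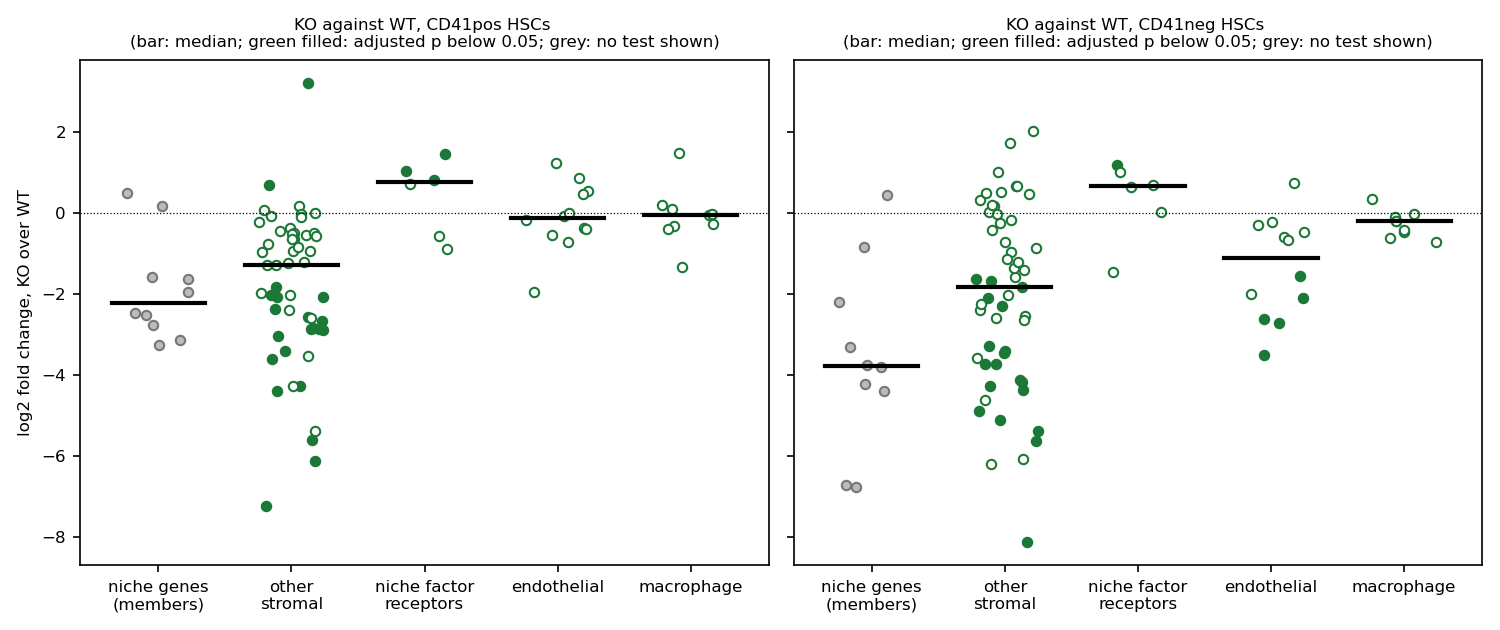
Log2 fold change of KO over WT for the 10 niche genes, the other stromal genes, the 6 receptors of the niche factors, and endothelial and macrophage markers, in CD41pos and CD41neg HSCs, with each point 1 gene and each bar a median. Points of niche genes are grey because no test is shown for them, and green filled points had an adjusted p below 0.05. Most called stromal genes lie below 0 and the called receptors lie above 0.

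Of the 6 receptors through which stem cells receive these factors, 3 were higher in KO in CD41pos and none was lower, where 9.79% of all genes tested were called higher, and 1 was higher in CD41neg, where 3.85% were. The receptors too were listed with earlier results of these data known, so their p-values are not independent of that choice. Itga4, the alpha chain of VLA-4 that binds VCAM-1, was 145, 185 and 177 CPM in CD41pos KO, against 85.6, 63.8 and 97.9 CPM in CD41pos WT, and 232, 328 and 253 CPM in CD41neg KO, against 143, 103 and 112 CPM in CD41neg WT. The groups did not overlap in either fraction. Its log2 fold change was 1.03 ± 0.19 in CD41pos and 1.18 ± 0.19 in CD41neg (edgeR adjusted p = 0.00626 and 0.00634), and both calls held in all 12 fits that left out 1 library.

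Itgb1, the beta chain that pairs with Itga4, was 438, 443 and 439 CPM in CD41pos KO, against 290, 157 and 315 CPM in CD41pos WT, a log2 fold change of 0.79 ± 0.20 (edgeR adjusted p = 0.0206). CD41neg HSCs had 392, 380 and 405 CPM in KO, against 278, 241 and 235 CPM in WT, also without overlap, but 0.64 ± 0.20 had an edgeR adjusted p of 0.0661. Tek, which encodes TIE2, the receptor of angiopoietin-1, was 110, 137 and 116 CPM in CD41pos KO, against 55.1, 16.8 and 62.0 CPM in CD41pos WT, with WT 3 the lowest. Its log2 fold change was 1.44 ± 0.35 in CD41pos (edgeR adjusted p = 0.0185) and 1.00 ± 0.35 in CD41neg (edgeR adjusted p = 0.0942). The CD41pos calls were lost without CD41pos KO 1, 2 or 3 for Itgb1 and without KO 2 or 3 for Tek. Both were also lost with the replicate number as a block (edgeR adjusted p = 0.0647 and 0.0656), though that number is not stated to pair KO with WT animals.

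Kit, the receptor of stem cell factor, was 834, 685 and 765 CPM in CD41pos KO, against 571, 184 and 640 CPM in CD41pos WT, and 1044, 889 and 1023 CPM in CD41neg KO, against 791, 558 and 492 CPM in CD41neg WT. Within each fraction every KO library was above every WT library, as for 21.9% of all genes tested in CD41pos and 18.5% in CD41neg, but the log2 fold changes of 0.71 ± 0.34 and 0.68 ± 0.34 did not pass (edgeR adjusted p = 0.155 and 0.224). Cxcr4, the signalling receptor of CXCL12, was 15.5, 11.7 and 13.4 CPM in CD41pos KO, against 19.2, 24.1 and 17.6 CPM in CD41pos WT, and 13.7, 7.98 and 12.9 CPM in CD41neg KO, against 9.82, 15.8 and 8.87 CPM in CD41neg WT. All CD41pos KO libraries were below all CD41pos WT libraries, as for 22.4% of all genes tested, while the CD41neg groups overlapped, and the log2 fold changes were -0.58 ± 0.27 and 0.01 ± 0.27 (edgeR adjusted p = 0.140 and 0.992). With a term for the low-Nr4a1 libraries Cxcr4 passed as lower in CD41pos, at -0.96 (edgeR adjusted p = 0.0270), and Kit as higher in both fractions, at 1.45 and 1.24 (edgeR adjusted p = 0.0181 and 0.0370). Ackr3, its scavenger receptor, was at most 0.50 CPM in a library, with -0.91 ± 1.05 and -1.46 ± 1.04 (edgeR adjusted p = 0.572 and 0.398).

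Markers of other marrow cells were read beside the niche genes. Of 12 endothelial markers none passed in CD41pos and 5 were lower in CD41neg KO, where they summed to 319 to 498 CPM, against 549 to 666 CPM in CD41neg WT. In CD41pos they summed to 635 to 699 CPM in KO, against 423 to 758 CPM in WT. Vwf, Tie1 and Eng made up most of each sum, so the sums mainly follow those genes. Vwf also went with the sort, at 199 to 306 CPM in CD41pos KO, against 24.6 to 45.5 CPM in CD41neg KO. Cdh5 was at most 1.59 CPM in a CD41pos library. No macrophage marker of 9 tested passed in either fraction. Of 9 plasma and B cell markers, 2 were lower in CD41pos KO and 4 in CD41neg KO, and 1 and 2 of 10 neutrophil markers were. Over all genes tested, 7.27% were called lower in CD41pos and 3.97% in CD41neg. With a term for the low-Nr4a1 libraries, 1 and 1 plasma and B cell markers, 0 and 1 neutrophil markers and 4 endothelial markers in CD41neg were lower, and 3 endothelial markers in CD41pos and 1 in CD41neg were higher in KO. That fit called 2496 of all 19395 genes tested higher and 2076 lower in CD41pos, and 955 higher and 728 lower in CD41neg. Without the low-Nr4a1 libraries, which leaves 1 WT library in each fraction, only effect sizes are given. The median log2 fold change was then 0.31 in CD41pos and -0.9997 in CD41neg for endothelial markers. It was -1.14 and 0.054 for plasma and B cell markers, and -1.13 and -2.67 for neutrophil markers. Over all genes tested it was 0.042 and 0.0092. No gene of these lists was at 0 throughout a group. The part of these cells in the levels of the 10 genes was not tested.

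The genes whose pattern over the 12 libraries was most like that of the niche set were named as a description, from 10012 genes with a mean of at least 5 CPM. Likeness was Pearson's r of log2(CPM + 1) with the mean z-score of the 10 genes. Igfbp5 came first, with r = 0.966 over 12 libraries, at 0.187 to 1.82 CPM in KO and 3.50 to 17.2 CPM in WT. It was followed by Ercc2 (0.958), Lpl (0.949), Serpinh1 (0.944), Evc2 and Pars2 (both 0.938), Triobp (0.936) and Gtpbp3 (0.935). Igfbp5, which encodes a binding protein of insulin-like growth factors, Lpl, lipoprotein lipase, and Serpinh1, the collagen chaperone HSP47, are made by stromal cells. Ercc2, a helicase of the transcription factor TFIIH, Pars2, the mitochondrial prolyl-tRNA synthetase, and Gtpbp3, a mitochondrial tRNA modification enzyme, are housekeeping genes, and lay at 19.0 to 23.2, 9.13 to 14.6 and 7.19 to 9.98 CPM in KO libraries, against 28.9 to 39.7, 28.1 to 30.7 and 30.7 to 40.1 CPM in WT libraries. The libraries form 2 genotype sets and KO libraries share animals across fractions, so any gene that separates the genotypes scores high.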

How the data were processed

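Per the labels' protocols, mouse bone marrow HSCs were sorted, RNA came from Qiagen's miRNeasy Micro kit and libraries from SMART-Seq v4. FastQC 0.11.7, cutadapt 1.9.1, STAR 2.6.1e, featureCounts 1.6.2 and the mm10 build are named in the submitters' processing notes. Their settings and the annotation were not given in the sources used here. SMART-Seq v4 does not keep strand, so reads of a gene and of an antisense neighbour cannot be told apart. The authors deposited a table of raw read counts per gene and a table of TPM, both for all 12 libraries. In 27 rows the gene names differed between the tables, and those of the TPM table were used. Gene spans are from an mm10 gene annotation.

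Groups were taken from the labels. Counts were fitted with edgeR 4.0.16 (R 4.3.3), with TMM factors, its low-count filter (19395 of 35869 genes kept, 16474 left out, all 10 niche genes kept), 4 group means and quasi-likelihood F tests, two-sided. Adjusted p-values are Benjamini-Hochberg's, over every gene tested, and a call needs one below 0.05. The script was tested on simulated data. CPM values use the TMM factors, fold changes are KO over WT or CD41pos over CD41neg, and errors are SE of the fit or SD over 3 libraries. Alternatives were DESeq2 1.42.0, other factors and filters, limma 3.58.1 on log2(TPM + 1) and log2(TPM + 0.1), fits of fewer groups, a block, and leaving out libraries. The block was the replicate number for KO against WT and the animal label between fractions. That number is not stated to pair KO with WT animals. Deviations from the group means of libraries with the same label correlated across fractions at 0.47, 0.63 and 0.47 for KO 1, 2 and 3 (over 11386 genes) and at 0.15 and -0.47 for WT 3 and 4, so KO libraries are paired by animal label. Named were all 10 niche genes, the 6 stromal genes of highest TPM, up to 4 called stromal genes of largest fold change per fraction, 6 receptors and the 8 genes of most similar pattern. The members and gene lists were chosen with earlier results of these data known.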

Additional observations from a re-analysis of the deposited data

How the results depend on the processing

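Of the 10 niche genes, 7 lower in CD41pos KO (5 to 7 with 1 library left out) and 8 lower in CD41neg KO (8 in each such fit) were called. Of all genes tested, 7.27% and 3.97% were called lower. No alternative moved the counts of niche genes by over 1.5 times. Nothing is read from that, since the genes were chosen with this contrast known. In KO 2 differed between fractions, against 5 with DESeq2, 0 on log2(TPM + 1), 4 without the 4 low-Nr4a1 libraries and 0 to 4 with 1 library left out. In WT 1 differed, against 2 with DESeq2 or no filter, 0 in WT alone and 1 to 2 with 1 left out. Interactions were 0, against 2 with DESeq2, 1 on log2(TPM + 0.1) and 0 to 0 with 1 left out. With the animal label as a block, 1 niche gene differed between fractions in KO and 0 in WT. Over all genes, this label block gave 156 of 541 calls between fractions in KO, 42 of 1084 in WT and 1 interaction. KO against WT was blocked on replicate number instead, which is not stated to pair KO with WT animals. That number block gave 957 of 3309 calls in CD41pos and 458 of 1517 in CD41neg. Among other stromal genes the number block left 11 of 21 and 11 of 20 calls by genotype. The label block gave 4 of them in KO and 0 in WT between fractions. Vcam1 turned in CD41pos with the number block (-0.0035). With the label block, Ibsp turned between fractions in WT (0.0456), as did the Angpt1 interaction (-0.0604). Single signs turned for Vcam1 in CD41pos with the low-Nr4a1 term (-0.33) and without those libraries (-0.10), and without them for Ibsp (0.0925) and Angpt1 (-0.31) between fractions in WT. With 1 library left out, log2 values ran from -0.43 to 0.50 for Vcam1 in CD41pos, -0.70 to 0.22 for Sparc and -0.97 to 0.53 for Vcam1 between fractions in KO, and -0.50 to 0.14 for Cxcl12, -0.51 to 0.10 for Serping1, -0.52 to 0.33 for Ibsp and -1.02 to 0.14 for Kitl between fractions in WT. The Angpt1 interaction ran from -0.18 to 0.34.

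Over all genes, CD41pos calls were 5052 with DESeq2, 2090 on log2(TPM + 0.1), 1977 in CD41pos alone, 7639 without the low-Nr4a1 libraries and 1010 to 4270 with 1 left out. CD41neg calls were 3096 with DESeq2 and 367 to 3852 with 1 left out. Between fractions, KO calls were 1321 with DESeq2, 1488 in KO alone, 1474 without the low-Nr4a1 libraries and 199 to 1094 with 1 left out, and WT calls 2413, 190 in WT alone, 4811 and 460 to 1200. Interactions were 72 with DESeq2, 2 with no filter, 7 and 26 on log2(TPM + 1) and log2(TPM + 0.1), 3467 without the low-Nr4a1 libraries, where single WT libraries are assumed to vary like the KO groups, and 0 to 2 with 1 left out. A fit of fewer groups gives no interaction of its own.

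Alternatives for other stromal genes were chosen after seeing the data. Calls in CD41pos, 21, were 9 on log2(TPM + 1), 8 on log2(TPM + 0.1) and 7 to 20 with 1 left out. In CD41neg, 20 calls became 8 and 9 on those scales, 12 in CD41neg alone, 13 with the low-Nr4a1 term, 12 without those libraries and 7 to 23 with 1 left out. Between fractions, KO calls, 2, were 5 with DESeq2, 4 in KO alone, 4 without the low-Nr4a1 libraries and 2 to 4 with 1 left out. WT calls, 1, were 6 with DESeq2, 2 with no filter, in WT alone, with the term or without those libraries, and 1 to 4 with 1 left out. Interactions, 0, were 1 without the low-Nr4a1 libraries and 0 to 0 with 1 left out. The causes of these moves were not tested. The median of all genes, -0.08 and -0.03 with TMM, moved to 0.11 in CD41pos and 0.12 in CD41neg on log2(TPM + 0.1), and 68.7% of CD41pos calls were higher on log2(TPM + 1), against 57.4% with TMM. Medians of the niche set stayed below 0, at -2.42 to -1.11 in CD41pos and -4.15 to -1.48 in CD41neg, over all alternatives. These too only describe genes chosen with this contrast known. Depth limited Adamts2, Ibsp and Kitl in CD41neg KO, where single libraries held 0 to 19 counts.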
